A study of Homo sapiens with 12 samples.

Results

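The 8 genes described here encode the enzymes that build ganglioside GD2 from ceramide, or that draw the intermediates of this route into neighbouring gangliosides. They were taken by gene name from the 58735 names in the count table of each cell line, and all 8 had enough counts to be tested in every comparison. RNA was sequenced from the human neuroblastoma (NB) cell lines KELLY, which carries amplified MYCN, and SK-N-AS, which does not. Cells received either DMSO as the control or Erastin, which blocks the antiporter that exchanges glutamate for cystine, for 24 h. The Erastin dose was 1 µM for KELLY and 2 µM for SK-N-AS, and line and dose therefore cannot be told apart in any comparison of responses. Both lines grew in RPMI with fetal bovine serum, neither carried an engineered allele, and each NB background is represented by a single established line. The labels give the cell type as Neuronal for KELLY and neuroblast for SK-N-AS. Each of the 4 groups had 3 samples, which the methods describe as wells seeded in triplicate, so the p-values measure the spread between such samples, which may be technical.

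Gangliosides are membrane glycolipids that carry sialic acid, a negatively charged sugar. Their synthesis starts in the Golgi, where UGCG adds glucose to ceramide and B4GALT5 or B4GALT6 then adds galactose to give lactosylceramide. ST3GAL5 adds the first sialic acid and forms GM3, ST8SIA1 adds the next and forms GD3, and B4GALNT1 adds N-acetylgalactosamine, which turns GD3 into GD2 and GM3 into GM2. ST8SIA5 extends GD3 to GT3, and B3GALT4 adds galactose to GM2 and GD2 to give GM1 and GD1b. GD2 is abundant on most neuroblastomas and is the target of the antibodies used in their immunotherapy. Only mRNA was measured in these libraries. The questions asked were whether the mRNA of these enzymes differed with Erastin in either line, and how the levels in control cells differed between the lines.

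The genes lie on 6 chromosomes (GRCh38, GENCODE 44 coordinates). UGCG is at chr9:111896814-111935369 on the plus strand, B4GALT5 at chr20:49632945-49713878 on the minus strand and B4GALT6 at chr18:31622246-31685836 on the minus strand. ST3GAL5 is at chr2:85837120-85905199, ST8SIA1 at chr12:22063773-22437041 and ST8SIA5 at chr18:46667821-46759257, all on the minus strand. B4GALNT1 is at chr12:57623409-57633239 on the minus strand and B3GALT4 at chr6:33277123-33284832 on the plus strand. B4GALNT1 shares 2136 exonic bases with SLC26A10 on the opposite strand, and the counting is not stated to use strand. SLC26A10 itself had 47 to 65 counts per library in KELLY with Erastin and 55 to 61 with DMSO. In SK-N-AS it had 83 to 128 with DMSO and 93 to 111 with Erastin. These counts were below the B4GALNT1 count of every library. Reads in the shared bases were not examined, so their part in the B4GALNT1 counts was not tested. ENSG00000287908, also on the opposite strand, shares 869 exonic bases with B4GALNT1. ST8SIA1 shares 161 exonic bases with the small nuclear RNA gene RNU1-149P, ST8SIA5 shares 672 with ST8SIA5-DT and B4GALT6 shares 107 with an antisense RNA.

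Promoter windows of 300 bases (250 before to 50 after the annotated start, RefSeq, GRCh38.p14) were at hand for 4 of the 8 genes: UGCG, B4GALT5, ST3GAL5 and ST8SIA1. B4GALT6, ST8SIA5, B4GALNT1 and B3GALT4 had no entry. The sequences of UGCG, ST3GAL5 and ST8SIA1 are shown because in control cells these genes stood, in that order, level between the lines, higher in SK-N-AS and higher in KELLY. Capitals mark matches on either strand to GGGCGG, the GC box that Sp1-type factors bind.
ST8SIA1 (chr12:22334658-22334957, minus strand): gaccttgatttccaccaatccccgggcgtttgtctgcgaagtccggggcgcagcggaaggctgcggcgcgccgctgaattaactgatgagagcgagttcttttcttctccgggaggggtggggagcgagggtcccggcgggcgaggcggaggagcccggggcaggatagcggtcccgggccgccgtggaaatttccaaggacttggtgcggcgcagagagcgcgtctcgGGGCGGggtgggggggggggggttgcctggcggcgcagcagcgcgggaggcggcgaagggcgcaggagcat
ST3GAL5 (chr2:85888941-85889240, minus strand): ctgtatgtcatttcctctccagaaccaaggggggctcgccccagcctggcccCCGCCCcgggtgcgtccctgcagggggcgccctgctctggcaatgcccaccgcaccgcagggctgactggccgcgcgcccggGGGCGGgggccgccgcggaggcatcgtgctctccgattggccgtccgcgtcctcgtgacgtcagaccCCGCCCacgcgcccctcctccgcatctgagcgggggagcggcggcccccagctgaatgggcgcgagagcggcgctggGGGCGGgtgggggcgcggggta
UGCG (chr9:111896564-111896863, plus strand): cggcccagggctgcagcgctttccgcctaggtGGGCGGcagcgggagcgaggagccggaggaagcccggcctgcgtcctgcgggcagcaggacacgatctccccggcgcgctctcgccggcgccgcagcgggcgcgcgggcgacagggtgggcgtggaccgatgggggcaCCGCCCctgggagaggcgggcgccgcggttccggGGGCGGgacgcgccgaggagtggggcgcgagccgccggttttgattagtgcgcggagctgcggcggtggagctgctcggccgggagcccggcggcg
The ST8SIA1 window held 1 GC box and 35 CpG dinucleotides, the ST3GAL5 window 4 and 36, and the UGCG window 3 and 48, against a median of 14 CpG over all promoters of the table. B4GALT5 held 3 GC boxes and 47 CpG. ST3GAL5 has 5 listed starts, and the windows of the pair farthest downstream held no GC box and 3 CpG each. A GC box was present in 44.9% of the 34796 promoters of the same length. None of the windows of the 4 genes held the E-box CACGTG (7.2% of all promoters), the ATF4 element TGATGNAA (3.63%) or the TATA box TATAAA (11.6%), searched on both strands. No match says only that these letters are not in these windows.

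Total counts ranged from 24169796 to 29835670 per library. MYCN had 116651 to 159802 counts in the KELLY libraries and at most 11 in those of SK-N-AS. CHAC1, a glutathione-degrading enzyme of the stress response, served as a check of the treatment labels. Levels are given as CPM, a gene's count relative to its library's total on the usual CPM scale, with TMM factors that even out differences in composition between libraries. The level of CHAC1 was 3.47 to 4.64 CPM in KELLY with DMSO and 21.8 to 44.3 with Erastin, and 0.806 to 1.18 against 17.5 to 28.8 in SK-N-AS. The 7 adrenergic NB markers were all lower in SK-N-AS than in KELLY control cells, while each of these markers was detected in both lines, and the 7 mesenchymal markers were all higher in SK-N-AS. Among 7 blood cell markers, PTPRC, which encodes CD45, had 12835 to 16496 counts in SK-N-AS libraries and 0 in KELLY. The remaining 6 blood markers together reached at most 2.17 CPM in SK-N-AS, with no counts of CD3E, LYZ or HBB in its DMSO samples. HBB had 1 to 40 counts per library in SK-N-AS with Erastin, and in KELLY 1 to 208 with DMSO and 0 to 91 with Erastin. The summed level of the 7 blood markers was 453 to 624 CPM in SK-N-AS and 0.0814 to 7.96 CPM in KELLY, highest there in DMSO replicate 1. Its part in the differences between the lines was not tested. No reference profile of either line was used here, so the identity of SK-N-AS rests on the labels and was not tested.

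In control cells the lines differed in 6 of the 8 enzymes by edgeR's quasi-likelihood test at a Benjamini-Hochberg adjusted p under 0.05. B4GALT6, ST3GAL5, ST8SIA5 and B3GALT4 were higher in SK-N-AS, and ST8SIA1 and B4GALNT1, the enzymes that make GD3 and GD2, were higher in KELLY. This count has to be read against the whole table, since 61.3% of all 17089 genes tested were called between the lines at the same threshold and 66.3% had groups that did not overlap. At the threshold of the study's methods, an unadjusted p of at most 0.05 with a fold change of at least 1.5, the same 6 of 8 were called, against 57.6% of all genes. The median log2 difference, SK-N-AS minus KELLY, was 0.62 over the 8 genes and -0.02 over all genes tested.

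**Figure D1:**
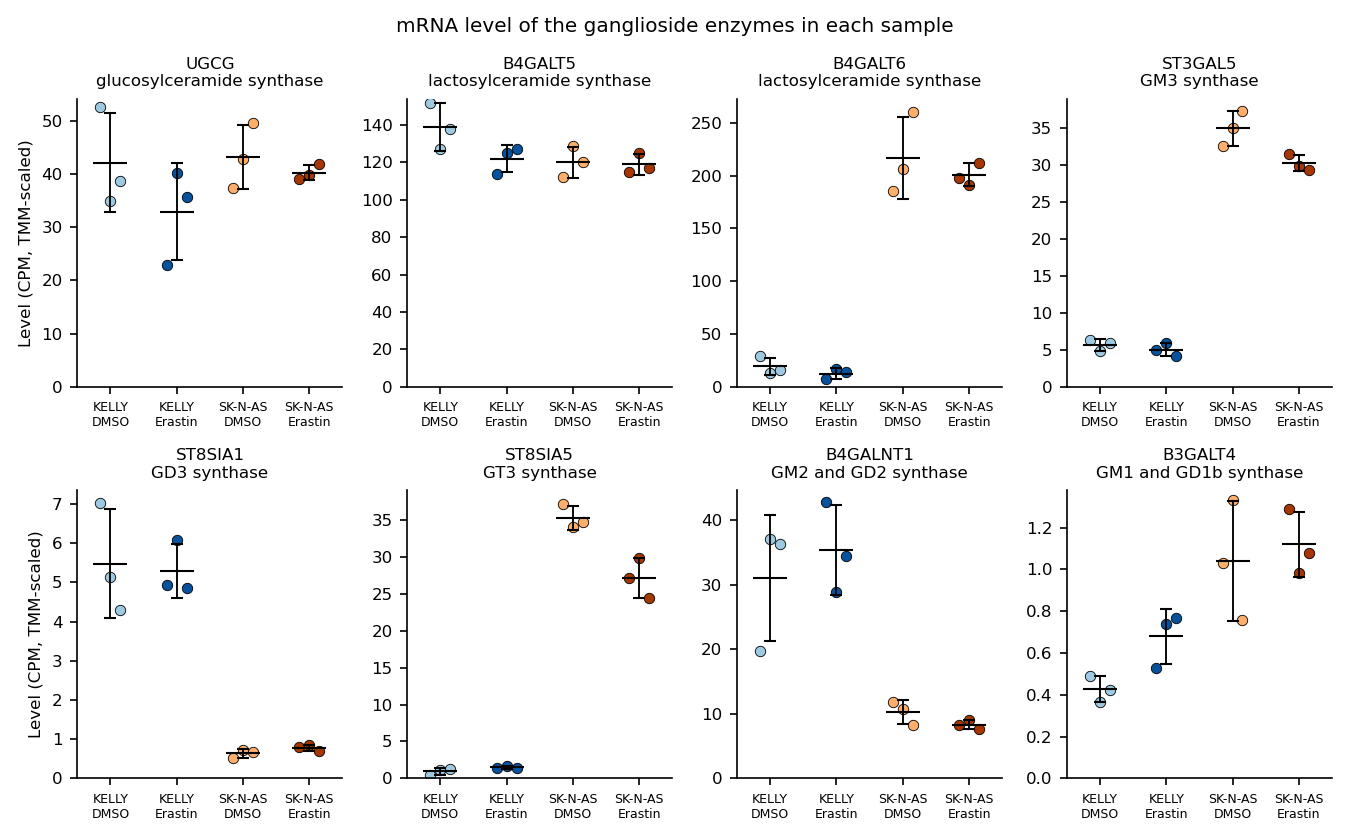
Level of each enzyme in every sample, in CPM after TMM scaling on a linear axis from 0, one panel per gene. Points are the 3 samples of a group, the horizontal line is their mean and the bars are 1 SD. ST8SIA1 and B4GALNT1 lie higher in KELLY, B4GALT6, ST3GAL5, ST8SIA5 and B3GALT4 higher in SK-N-AS, and UGCG and B4GALT5 overlap between the lines. Within a line, the DMSO and Erastin samples overlap except for ST8SIA5 and B3GALT4 in KELLY and ST3GAL5 and ST8SIA5 in SK-N-AS.

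UGCG, the glucosylceramide synthase that commits ceramide to this route, was at 52.6, 34.9 and 38.7 CPM in the KELLY DMSO samples and at 37.4, 42.8 and 49.5 CPM in those of SK-N-AS. The ranges overlapped, and the log2 difference was 0.00 (SE 0.20, adjusted p = 1, edgeR). Its 95% interval of -0.46 to 0.46 is the range of differences these samples cannot tell from 0. B4GALT5, the more widely expressed lactosylceramide synthase, had 152, 127 and 138 CPM in KELLY and 112, 129 and 120 CPM in SK-N-AS. These groups overlapped too, with a log2 difference of -0.25 (SE 0.14, interval -0.56 to 0.06, adjusted p = 0.143, edgeR). The call depended on the processing: with the GC trend of the libraries removed (described with the Erastin results), the B4GALT5 difference was -0.33 with an adjusted p of 0.0132 in edgeR.

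B4GALT6, the other lactosylceramide synthase, was at 28.9, 13.1 and 15.8 CPM in KELLY and at 185, 206 and 260 CPM in SK-N-AS. The groups were far apart, and the level was 10.9-fold higher in SK-N-AS (log2 3.45, SE 0.32, adjusted p = 2.14e-05, edgeR). Per kb of exon, B4GALT6 made up 11% ± 3.34 (SD, n = 3) of the summed level of both synthases in KELLY and 62.1% ± 3.86 (SD, n = 3) in SK-N-AS. Hence B4GALT5 was the more abundant mRNA of this pair in each KELLY control sample, where the B4GALT6 share was at most 14.8%, and B4GALT6 the more abundant in each SK-N-AS control sample, where it was at least 59.5%.

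ST3GAL5, which makes GM3 and so supplies all later steps, had 6.26, 4.80 and 5.91 CPM in KELLY and 32.5, 34.9 and 37.2 CPM in SK-N-AS. It was 6.00-fold higher in SK-N-AS (log2 2.58, SE 0.18, adjusted p = 3.26e-06, edgeR) and the SD within each group was at most 2.32 CPM.

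ST8SIA1, the GD3 synthase, went the other way. It was at 7.02, 5.13 and 4.29 CPM in KELLY control cells (186, 126 and 122 counts) and at 0.516, 0.725 and 0.681 CPM in SK-N-AS (14, 18 and 18 counts). The lowest KELLY sample lay above the highest SK-N-AS sample, and the level was 8.76-fold higher in KELLY (log2 -3.13 for SK-N-AS minus KELLY, SE 0.30, adjusted p = 2.78e-05, edgeR). SK-N-AS counts were low but above 0 in each library.

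B4GALNT1, the GM2 and GD2 synthase, had 19.8, 37.1 and 36.4 CPM in KELLY and 11.8, 10.8 and 8.24 CPM in SK-N-AS. The groups did not overlap, although the first KELLY sample stood well below the other 2, and the level was 3.09-fold higher in KELLY (log2 -1.63, SE 0.26, adjusted p = 0.000602, edgeR). The ratio of ST8SIA1 to B4GALNT1 counts within a library was 0.203 ± 0.131 (SD, n = 3) in KELLY and 0.0646 ± 0.0195 (SD, n = 3) in SK-N-AS. The KELLY libraries had 0.354, 0.138 and 0.118, and without replicate 1 their mean was 0.128.

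ST8SIA5, the GT3 synthase that draws GD3 away from GD2, showed the widest gap of the 8 enzymes. KELLY control samples had 11, 29 and 36 counts (0.415, 1.18 and 1.27 CPM) and SK-N-AS samples 1009, 845 and 919 counts (37.2, 34.1 and 34.7 CPM). The level was 36.1-fold higher in SK-N-AS (log2 5.17, SE 0.33, adjusted p = 2.07e-06, edgeR). Of the summed ST8SIA1 and ST8SIA5 counts, ST8SIA1 took 84.3% ± 8.98 (SD, n = 3) in KELLY and 1.79% ± 0.376 (SD, n = 3) in SK-N-AS, so that the leading sialyltransferase of this pair, in counts, was a different gene in each line.

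B3GALT4, which converts GD2 to GD1b, was scarce in both lines. It had 13, 9 and 12 counts in KELLY (0.490, 0.366 and 0.422 CPM) and 28, 33 and 20 counts in SK-N-AS (1.03, 1.33 and 0.756 CPM). It was 2.35-fold higher in SK-N-AS (log2 1.23, SE 0.37, adjusted p = 0.0174, edgeR), and the groups did not overlap. The call was lost in 6 of 15 alternative analyses, 4 of which left out a single library, SK-N-AS replicate 1 or 2 (adjusted p = 0.0517 and 0.0928) or KELLY replicate 2 or 3 (adjusted p = 0.0556 and 0.0605, edgeR).

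**Figure D2:**
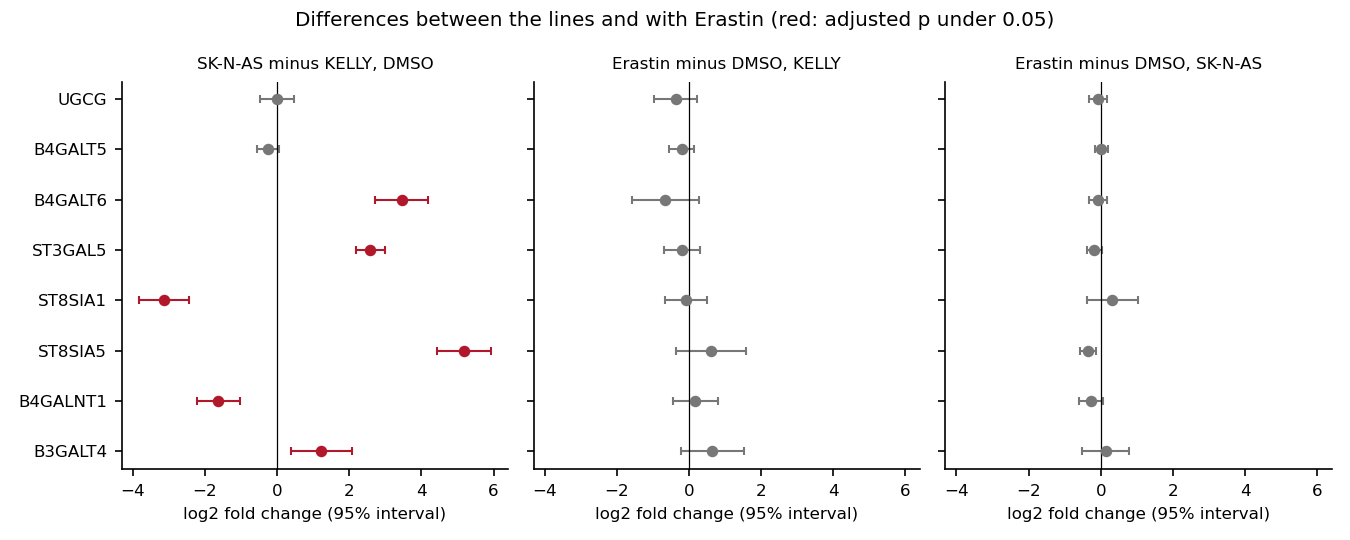
Log2 difference of each enzyme with its 95% interval derived from the edgeR test, for SK-N-AS minus KELLY in DMSO samples (left) and for Erastin minus DMSO in KELLY (middle) and SK-N-AS (right), all on one scale. Red points have an adjusted p under 0.05. The 6 red points are all in the comparison of the lines, from -3.13 for ST8SIA1 to 5.17 for ST8SIA5, and with Erastin each value lies between -0.65 and 0.65.

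When levels were expressed per kb of exon to allow for gene length, without a correction for GC content, the order of the enzymes differed between the lines. In KELLY control cells B4GALT5 led with 29.4 CPM per kb, followed by UGCG at 9.21, B4GALNT1 at 3.94 and B4GALT6 at 3.73. ST8SIA1 stood at 0.378, ST3GAL5 at 0.347, B3GALT4 at 0.18 and ST8SIA5 at 0.0609 CPM per kb. B4GALNT1 and B4GALT6 overlapped, as did ST8SIA1 and ST3GAL5, while the other neighbours in this order had ranges that were apart. SK-N-AS control cells had B4GALT6 first at 42.1 CPM per kb, B4GALT5 at 25.4, UGCG at 9.47 and ST8SIA5 at 2.25. ST3GAL5 was at 2.14, B4GALNT1 at 1.3, B3GALT4 at 0.439 and ST8SIA1, the last, at 0.0442 CPM per kb. In that line only ST8SIA5 and ST3GAL5 overlapped. The exon length of ST3GAL5 sums all annotated exons (16300 bases), and with its 4366-base MANE transcript instead its mean was 1.3 CPM per kb in KELLY and 7.99 in SK-N-AS, above ST8SIA1 and ST8SIA5 respectively.

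**Figure D3:**
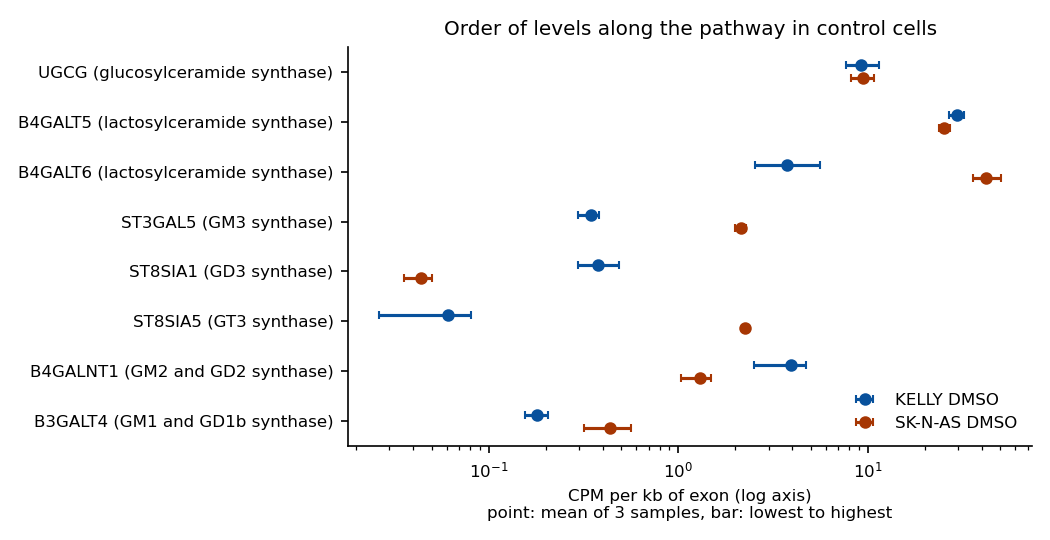
Level per kb of exon of each enzyme in control cells, in pathway order from top to bottom, on a log axis. Points are means of 3 samples and bars run from the lowest to the highest sample. The points of the lines lie close together for UGCG and for B4GALT5, while ST8SIA1 lies at 0.378 in KELLY against 0.0442 in SK-N-AS, and ST8SIA5 at 0.0609 against 2.25.

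Erastin left no enzyme past the threshold in KELLY. By edgeR 0 of 8 had an adjusted p under 0.05, against 0.00615% of the 16258 genes tested (1 gene). An unadjusted p under 0.05 was found for 0 of 8, against 2.64% of all genes. DESeq2 also called 0 of 8 at the adjusted threshold. At the threshold of the methods 0 of 8 were called, where 2.03% of all genes were. The median log2 difference of the 8 enzymes was -0.13, with a range of -0.65 to 0.65, and that of all genes 0.01.

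The early enzymes of KELLY had lower means with Erastin, within the spread of the samples. UGCG was at 22.8, 40.2 and 35.7 CPM with Erastin, against the DMSO values given above, and its log2 difference was -0.37 (SE 0.26, interval -0.98 to 0.23, adjusted p = 0.77, edgeR). B4GALT5 had 114, 125 and 127 CPM (log2 -0.20, interval -0.54 to 0.14), and B4GALT6 had 7.1, 16.6 and 13.8 CPM (log2 -0.65, SE 0.40, interval -1.57 to 0.27). All 3 overlapped with DMSO. Without KELLY DMSO replicate 1, which had the highest level of each of these genes, the log2 difference was -0.16 for UGCG, -0.11 for B4GALT5 and -0.20 for B4GALT6. Without KELLY Erastin replicate 1, which had the lowest, it was -0.17, -0.16 and -0.37 in the same order. The B4GALT6 share of both synthases was 8.41% ± 2.76 (SD, n = 3) with Erastin against 11% in DMSO (p = 0.5, exact two-sided permutation test, for which 0.1 is the smallest p with 3 against 3).

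The 3 enzymes on the line from lactosylceramide to GD2 also overlapped between DMSO and Erastin in KELLY. ST3GAL5 was at 4.94, 5.89 and 4.20 CPM with Erastin (log2 -0.19, interval -0.70 to 0.32). ST8SIA1 was at 4.94, 6.08 and 4.86 CPM, with a log2 difference of -0.07 (SE 0.25, interval -0.65 to 0.51, adjusted p = 0.917, edgeR). B4GALNT1 was at 42.9, 28.9 and 34.5 CPM, with a log2 difference of 0.18 (SE 0.27, interval -0.44 to 0.81, adjusted p = 0.796, edgeR). The direction of ST8SIA1 and B4GALNT1 was not settled, since both differences changed sign when KELLY DMSO replicate 1 was left out (0.18 and -0.04).

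The side-branch enzymes ST8SIA5 and B3GALT4 were the members whose KELLY samples did not overlap between treatments in CPM, as was the case for 8.24% of all genes tested. In counts, the ST8SIA5 groups did overlap and the B3GALT4 groups met at 13. ST8SIA5 had 34, 43 and 37 counts with Erastin (1.39, 1.68 and 1.35 CPM) against 11, 29 and 36 with DMSO, and its log2 difference of 0.62 (SE 0.42, interval -0.36 to 1.59, adjusted p = 0.77, edgeR) was 0.27 without the DMSO sample that had 11 counts. B3GALT4 had 13, 19 and 21 counts with Erastin (0.530, 0.741 and 0.767 CPM) against 13, 9 and 12, with a log2 difference of 0.65 (SE 0.38, interval -0.23 to 1.53, adjusted p = 0.77, edgeR). Neither difference passed the threshold.

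In SK-N-AS, ST8SIA5 was the member nearest the threshold with Erastin. edgeR called 0 of 8 enzymes at an adjusted p under 0.05, against 0.659% of 16095 genes. ST8SIA5 was the 1 of 8 with an unadjusted p under 0.05, which 8.77% of all genes had. DESeq2 called 0 of the 7 members to which it gave an adjusted p, with none for ST8SIA1. At the threshold of the methods 0 of 8 were called, against 2.67% of all genes. The median log2 difference was -0.08 over the 8 enzymes, which ranged from -0.35 to 0.32, and -0.01 over all genes.

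ST8SIA5 had 27.2, 29.9 and 24.5 CPM with Erastin in SK-N-AS, each below the 37.2, 34.1 and 34.7 CPM of the DMSO samples. Its log2 difference was -0.35 (SE 0.10, interval -0.58 to -0.13, unadjusted p = 0.00529, adjusted p = 0.231, edgeR), a 1.28-fold lower level. The call turned on the processing: the adjusted p was 0.00799 with the GC trend removed (log2 -0.36) and 0.0325 without SK-N-AS DMSO replicate 3 (log2 -0.36), both in edgeR. Of all genes tested, 914 of 16095 and 855 of 16433 were called in these settings, in that order. Over all 16 alternatives the difference stayed between -0.41 and -0.28 with adjusted p-values from 0.00468 to 1.

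ST3GAL5 was the other member without overlap in SK-N-AS, at 31.4, 29.8 and 29.3 CPM with Erastin and 32.5 CPM in the lowest DMSO sample. Such separation occurred in 14.6% of all genes tested in this line. The log2 difference was -0.18 (SE 0.10, interval -0.39 to 0.03, adjusted p = 0.654, edgeR).

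The remaining members of SK-N-AS overlapped between treatments. UGCG was at 39.1, 39.7 and 41.8 CPM with Erastin (log2 -0.08, interval -0.32 to 0.16) and B4GALT5 at 115, 125 and 117 CPM (log2 0.01, interval -0.17 to 0.20). B4GALT6 was at 198, 191 and 212 CPM (log2 -0.09, interval -0.34 to 0.16), and its share of both synthases was 60.6% ± 2.18 (SD, n = 3) against 62.1% in DMSO (p = 0.7, exact two-sided permutation test). For these 3 genes the intervals leave room for a log2 difference of at most 0.34 in size.

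The GD3 and GD2 synthases of SK-N-AS had differences of opposite sign, neither past the threshold. ST8SIA1 had 22, 25 and 18 counts with Erastin (0.808, 0.848 and 0.697 CPM) against 14, 18 and 18 with DMSO, and its log2 difference was 0.32 (SE 0.32, interval -0.37 to 1.02, adjusted p = 0.864, edgeR). B4GALNT1 was at 8.23, 9.09 and 7.63 CPM with Erastin (log2 -0.28, SE 0.15, interval -0.60 to 0.05, adjusted p = 0.667, edgeR). B3GALT4 had 35, 29 and 28 counts with Erastin (log2 0.13, interval -0.52 to 0.78). Of the summed ST8SIA1 and ST8SIA5 counts, ST8SIA1 took 2.8% ± 0.0666 (SD, n = 3) with Erastin and 1.79% ± 0.376 with DMSO, with no overlap, at the smallest p the exact permutation test allows (p = 0.1). The ratio of ST8SIA1 to B4GALNT1 counts in SK-N-AS was 0.0439 to 0.0826 with DMSO and 0.0914 to 0.0982 with Erastin, also without overlap (p = 0.1, exact two-sided permutation test). In KELLY the ST8SIA1 share and this ratio overlapped, with lower means under Erastin. The share went from 84.3% to 78.2% there (p = 0.4, exact two-sided permutation test). The KELLY ratio went from 0.203 to 0.156 (p = 0.8, exact two-sided permutation test). UGCG to B4GALNT1 ratios overlapped in both lines (p = 0.7 in SK-N-AS and 0.5 in KELLY, exact two-sided permutation test). How often ratios of other genes separate was not tested. The shares and ratios were not corrected for the GC trends of the libraries, whose part in them was not tested.

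The response to Erastin was then compared between the lines in 1 fit over all 12 samples. By edgeR 0 of 8 enzymes had an adjusted p under 0.05 for this interaction, against 0.00548% of 18239 genes, and DESeq2 called 0 of 8. ST8SIA5 was the 1 of 8 with an unadjusted p under 0.05, which 4.25% of all genes had. It was also the 1 called at the threshold of the methods, which 3.53% of all genes passed. Its response in SK-N-AS minus that in KELLY was -0.97 on the log2 scale (SE 0.36, interval -1.76 to -0.18, unadjusted p = 0.0197, adjusted p = 0.811, edgeR). For ST8SIA1 this difference was 0.38 (interval -0.39 to 1.15) and for B4GALNT1 -0.47 (interval -1.18 to 0.25). In the Erastin samples themselves, ST8SIA1 was 6.75-fold and B4GALNT1 4.26-fold higher in KELLY by group means. ST8SIA5 was 18.5-fold, B4GALT6 16-fold, ST3GAL5 6.03-fold and B3GALT4 1.65-fold higher in SK-N-AS. None of these overlapped between the lines, while UGCG and B4GALT5 did. The share of all genes that separated the lines with Erastin was not counted, and with DMSO it was 66.3%.

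Part of the spread of the members within a group moved with the GC content of their transcripts. Libraries differed in how abundance moved with gene GC content, with Spearman correlations across genes, which are not independent replicates, that spanned -0.83 to 0.87 over the KELLY libraries and -0.75 to 0.77 over those of SK-N-AS. The members span 35.7% GC (B4GALT6) to 59.4% GC (B3GALT4). KELLY DMSO replicate 1, the library with the correlation of -0.83, had the highest levels of the AT-rich UGCG (39.3% GC) and B4GALT6 and the lowest level of the GC-rich B4GALNT1 (57.0% GC) among the KELLY samples. KELLY Erastin replicate 1, at 0.87, had the lowest UGCG and B4GALT6 and the highest B4GALNT1. With the trend removed, the SD of log2 levels within groups became smaller for 6 of the 8 members in KELLY (median 0.34 before and 0.21 after) and for 7 of 8 in SK-N-AS (0.16 and 0.07). For UGCG in KELLY it went from 0.38 to 0.09 and for B4GALNT1 from 0.40 to 0.14, while it became larger for B4GALT5 (0.12 to 0.15) and B3GALT4 (0.23 to 0.60) in that line. In that analysis the KELLY Erastin differences were -0.16 for UGCG, -0.32 for B4GALT6, 0.15 for ST8SIA1, -0.06 for B4GALNT1 and 0.35 for B3GALT4, none past the adjusted threshold. The differences between the lines were 3.48 for B4GALT6, -3.10 for ST8SIA1, -1.70 for B4GALNT1 and 5.09 for ST8SIA5, all past it.

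**Figure D4:**
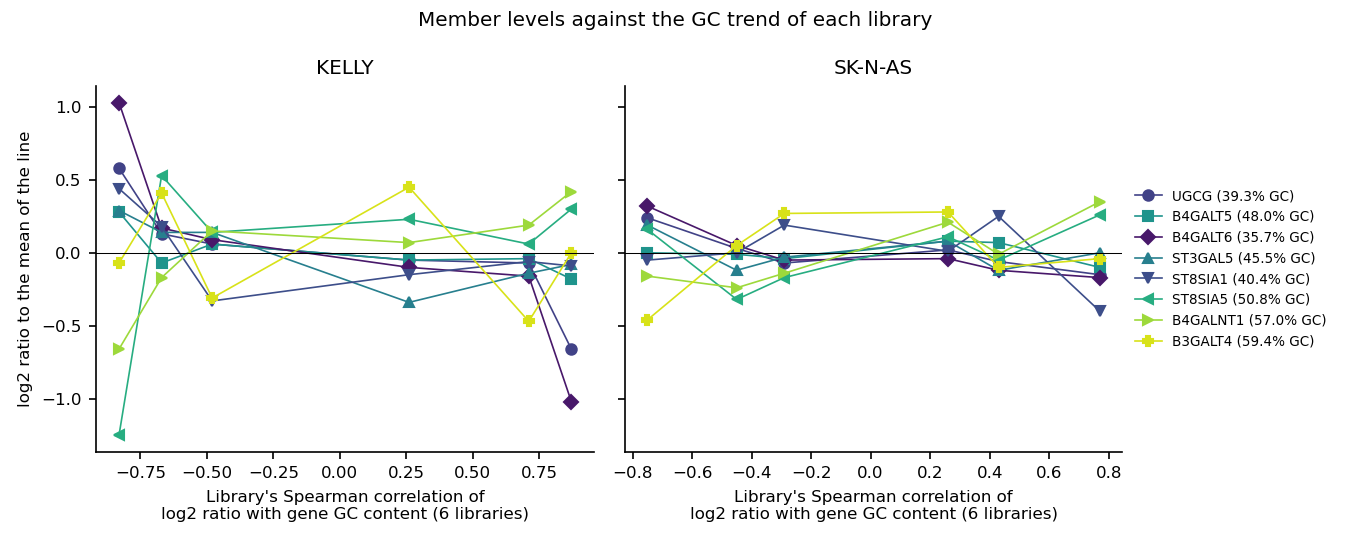
Log2 ratio of each enzyme in a library to its mean over the 6 libraries of the line (vertical axis), against that library's Spearman correlation between log2 ratio and gene GC content (horizontal axis), for KELLY and SK-N-AS. Colour runs from low GC (dark) to high GC (light). In KELLY the library at -0.83 has B4GALT6 highest and ST8SIA5 and B4GALNT1 lowest, and the library at 0.87 has B4GALT6 and UGCG lowest.

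The genes around this route were examined in 4 further groups, none of which held a gene called with Erastin in either line. This was 0 of 46 genes in KELLY and 0 of 46 in SK-N-AS by edgeR at an adjusted p under 0.05, with 0 and 2 genes (SPTLC2 and NEU1) at an unadjusted p under 0.05. Among all genes tested, the adjusted threshold was met by 0.00615% (KELLY) and 0.659% (SK-N-AS), and an unadjusted p under 0.05 by 2.64% and 8.77%, so at these shares a count of 0 says little about the groups. DESeq2 called 0 of 46 for KELLY and, for SK-N-AS, 0 of the 45 that had an adjusted p. The gene with the smallest p of each group in KELLY was CERS1, a ceramide synthase (log2 1.52, adjusted p = 0.77, edgeR), B3GNT5, which starts the lacto-series (log2 -0.53), the sialidase NEU4 (log2 0.52) and PLEKHA8, a glucosylceramide carrier (log2 -0.35). In SK-N-AS they were SPTLC2 of serine palmitoyltransferase (log2 0.18), ST6GALNAC4 (log2 -0.29), the lysosomal sialidase NEU1 (log2 0.31, adjusted p = 0.331, edgeR) and SLC35A1, the transporter of activated sialic acid (log2 0.19). The CERS1 counts in KELLY were 22 to 48 per library with DMSO and spread widely, from 32 to 183, with Erastin.

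Between the lines, genes for ceramide supply differed in 8 of the 11 tested, 6 higher in SK-N-AS and 2 higher in KELLY, with a median log2 difference of 0.56. KDSR, which acts at the second step of ceramide synthesis, was at 82.6 ± 7.91 CPM in SK-N-AS and 13.1 ± 1.66 CPM in KELLY (SD, n = 3; log2 2.62, adjusted p = 2.36e-06, edgeR). SPTLC1, a subunit of the first enzyme, was 3.53-fold higher in SK-N-AS. Among the ceramide synthases, CERS4 had no counts in KELLY and was at least 11.8-fold higher in SK-N-AS, taking 3 counts per library as the floor. CERS6 was 2.29-fold and CERS1 11.1-fold higher in KELLY, where the CERS1 value rests on 1 to 5 counts per SK-N-AS library.

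Of the genes for other fates of ceramide and lactosylceramide and for later ganglioside steps, 10 of 13 tested differed, 7 higher in SK-N-AS and 3 in KELLY (median log2 0.92). ST8SIA3, another enzyme that joins sialic acids to each other, was at 65.8 ± 13.3 CPM (SD, n = 3) in KELLY, above ST8SIA1 in CPM, and had 2 counts in all 3 SK-N-AS libraries together. Its summed counts gave a ratio of 2600 with an exact 95% counting interval of 718 to 21400, which covers counting error only. ST6GALNAC5 and UGT8 were 3.40-fold and 3.32-fold higher in KELLY. ST3GAL1, a sialyltransferase of later gangliosides and of glycoproteins, was 8.68-fold higher in SK-N-AS, and ST6GALNAC3 3.75-fold. B3GALNT1, the globoside synthase, was at 15.4 ± 2.4 CPM in SK-N-AS and 0.107 ± 0.152 CPM in KELLY (SD, n = 3; adjusted p = 6.97e-06, edgeR).

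Breakdown genes differed in 11 of 14, with 6 higher in SK-N-AS, 5 higher in KELLY and a median log2 difference of 0.11. GM2A, an activator protein needed for the degradation of GM2, was 2.49-fold higher in SK-N-AS. NEU4 was at 45.4 ± 20.6 CPM in KELLY and 1.59 ± 0.471 CPM in SK-N-AS (SD, n = 3; log2 -4.85, adjusted p = 1.16e-05, edgeR). NEU3, the plasma membrane sialidase that acts on gangliosides, was 1.60-fold and the galactosidase GLB1 1.58-fold higher in KELLY.

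Genes for sugar and sialic acid supply and transport differed in 7 of 10, 5 higher in SK-N-AS and 2 in KELLY (median log2 0.40). SLC35A2, a carrier of activated galactose, and NANS, which makes sialic acid, were 2.94-fold and 2.65-fold higher in SK-N-AS. PLEKHA8 was 1.77-fold and CMAS, which activates sialic acid, 1.43-fold higher in KELLY. These shares of called genes, from 70% to 78.6% over the 4 groups, stand against the 61.3% of all genes.

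**Figure D5:**
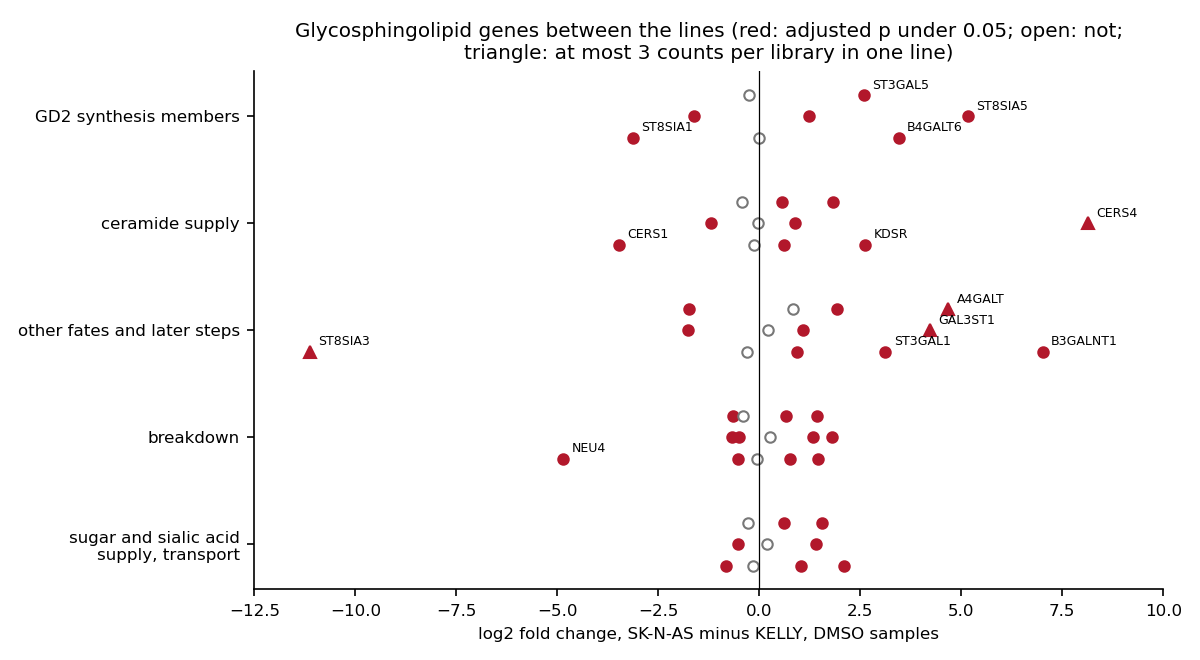
Log2 difference between the lines in control cells (SK-N-AS minus KELLY, horizontal axis) for every tested gene of the 8 enzymes and of the 4 surrounding groups, 1 point per gene. Filled red points have an adjusted p under 0.05, open points do not, and triangles are genes with at most 3 counts per library in one line, whose fitted value depends on the small count added by the model. Each group has points on both sides of 0, with ST8SIA1 at -3.13 and ST8SIA5 at 5.17 among the 8 enzymes.

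The genes whose levels ran most like those of the GD2 enzymes across the 12 samples are given as a description, since the samples fall into 2 lines and share the GC trends of their libraries. By Pearson correlation of log2 CPM over 18239 genes, ZSWIM5, SLC4A1AP, VHL, NETO1 and SATB1 were closest to ST8SIA1 (r from 0.993 to 0.995). NETO1 was at 23.2 CPM in KELLY and 0.24 CPM in SK-N-AS, and VHL at 76.8 and 39 CPM. GATA2, DLG4, MPST, TCF25 and GTF3C2 were closest to B4GALNT1 (r from 0.995 to 0.996). GATA2, a transcription factor of sympathetic neuron development, averaged 944 CPM in KELLY and 225 CPM in SK-N-AS. UGCG ran with NCKAP1, DEK, ZMYM2, AC118549.1 and PPP4R2 (r from 0.985 to 0.992), genes whose line means differed little, as with NCKAP1 at 312 CPM in KELLY and 353 CPM in SK-N-AS.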

How the data were processed

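RNA from 12 samples of KELLY and SK-N-AS cells was sequenced. Per the labels and the study's methods, RNA was extracted with the ReliaPrep kit, read as paired ends and aligned to GRCh38, and the authors counted reads per gene with HTSeq on GENCODE release 29. The submitters' processing notes also name Trimmomatic and DESeq2. The aligner and the strand setting are not given in the sources used here. The authors deposited 1 table of raw counts per line, not normalized, with genes of all biotypes (58735 names, 1568 of them repeats). Total counts per sample lay between 24169796 and 29835670, and their number limits the precision of low genes such as B3GALT4.

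Groups came from the sample labels. Each comparison was fitted on the whole table in R 4.3.3 with edgeR 4.0.16 (filterByExpr defaults, TMM, quasi-likelihood test, Benjamini-Hochberg over all genes tested): Erastin against DMSO within each line, the lines in DMSO, and the interaction over all 12 samples. Calls used an adjusted p under 0.05, and beside it the threshold of the methods. SEs and 95% intervals were derived from the edgeR test. The SE is the size of the log2 difference over the square root of the F statistic, and the interval uses the t distribution. Group means in CPM and levels per kb of exon used TMM factors over all 12 samples and GENCODE 44 exon lengths. Of the gene names, 36579 matched GENCODE 44 by symbol and 889 by a synonym, which gave a GC content for 86.5% to 89.1% of the genes tested. Shares were compared by exact two-sided permutation tests over samples. No 2 libraries held identical values.

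Alternatives were RLE scaling, library size alone, DESeq2 1.42.0, no filter, a minimum of 10 counts per sample, only protein-coding genes, each library's GC trend as an offset (loess, span 0.5, degree 2), the replicate number as a block, both together, all 12 samples in 1 fit, the threshold of the methods, and each replicate left out. DESeq2 on the lists and the ST8SIA1 to B4GALNT1 ratio with libraries left out were added after seeing the data.

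All 8 enzymes were named in every comparison. From each other list, up to 3 genes with the smallest p per direction among those called were named, or the 1 with the smallest p where none was, and for ST8SIA1, B4GALNT1 and UGCG the 5 genes with the highest correlation of log2 CPM (prior count 2). Some genes that this rule names are not reported here. Other genes served as checks and were chosen after their values were seen. The members and lists were chosen with earlier results of these data known. On simulated data, 27 of 100 genes changed by 1 on the log2 scale and 96 of 100 changed by 2 were recovered at the adjusted threshold in KELLY (15945 genes), and 90 and 100 of 100 in SK-N-AS (15822 genes). The changed genes were drawn from those with a mean above 1 CPM. B3GALT4 in KELLY and ST8SIA1 in SK-N-AS lay below that level, so these shares do not cover them.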

Additional observations from a re-analysis of the deposited data

Results flagged for a closer look

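In CPM, ST8SIA5, the GT3 synthase, had Erastin and DMSO samples that did not overlap in either line, in opposite order. The 3 KELLY samples with Erastin lay above those with DMSO, and the 3 SK-N-AS samples with Erastin lay below. Of all genes tested, 8.24% did not overlap in KELLY and 14.6% in SK-N-AS. In counts the KELLY groups did overlap, and the KELLY log2 difference of 0.62 was 0.27 without DMSO replicate 1. The difference of the responses, SK-N-AS minus KELLY, was -0.97 on the log2 scale (SE 0.36, 95% interval -1.76 to -0.18). The interaction test over all 12 samples gave an unadjusted p of 0.0197 and an adjusted p of 0.811 (edgeR), and over 21 alternatives the difference was between -1.24 and -0.62 with adjusted p-values of 0.445 to 1. The KELLY samples rest on 11 to 43 counts each, those of SK-N-AS on 632 to 1009.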

How the results depend on the processing

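Between the lines, B4GALT6, ST3GAL5, ST8SIA1, ST8SIA5 and B4GALNT1 kept their direction and an adjusted p under 0.05 in all 16 alternatives, and B3GALT4 kept its direction in 15 but the call in 9. In this comparison the replicate block joined same-numbered samples of different lines, which the labels do not pair, so the block settings say little here. Leaving out 1 library gave 5 to 6 members called there. With Erastin in SK-N-AS, 1 of 8 members (ST8SIA5) was called with the GC trend removed, as were 914 of all 16095 genes. The replicate block with the GC trend removed also called 1 member, and 1412 of all 16095 genes. Leaving out 1 library called 0 to 1 members, and 53 to 855 genes. For the interaction, 1 member (ST8SIA5) passed the threshold of the methods, which 3.53% of all genes passed. In KELLY no alternative called a member. B3GALT4 could not be tested with at least 10 counts in every sample where KELLY libraries entered the fit, and DESeq2 gave no adjusted p for ST8SIA1 in SK-N-AS.

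Small differences changed sign, none of them past the threshold, and the cause was not tested. ST8SIA1 in KELLY was 0.15 with the GC trend removed, 0.16 with the block added, and -0.23 to 0.18 when libraries were left out. B4GALNT1 in KELLY was -0.06, -0.05 and -0.04 to 0.32 in the same order. Leaving out libraries of SK-N-AS gave -0.03 to 0.06 for B4GALT5, -0.17 to 0.03 for UGCG, -0.19 to 0.06 for B4GALT6 and -0.05 to 0.34 for B3GALT4. UGCG between the lines was -0.02 by library size alone, -0.01 with at least 10 counts, -0.02 for protein-coding genes and -0.12 to 0.21 with libraries left out. The ST3GAL5 interaction was -0.03 without a filter, -0.07 with the GC trend removed, -0.06 with the block added and -0.12 to 0.13 with libraries left out. The B4GALT6 share differed by -2.72 to 0.783 percentage points in SK-N-AS with libraries left out.

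Over all genes, calls in KELLY went from 1 to 31 with DESeq2, 30 with the GC trend removed, 19 without a filter, 17 in the fit of all 12 samples, 5 with block and GC trend, and 0 to 2 with libraries left out. In SK-N-AS they went from 106 to 223 with DESeq2, 265 without a filter, 46 in the fit of all 12 samples, 914 with the GC trend removed, 1412 with the block added to it, and 53 to 855 with libraries left out (855 without DMSO replicate 3, 53 without DMSO replicate 2). For the interaction they went from 1 to 12 with DESeq2, 20 with the GC trend removed, 8 without a filter, 2 with block and GC trend, and 3 without KELLY DMSO replicate 2. The replicate block alone gave 0 members called with Erastin in either line, and over all genes 0 calls for KELLY and 308 for SK-N-AS. Same-numbered samples deviated together with r of -0.58, -0.59 and -0.07 in KELLY and -0.03, 0.10 and 0.18 in SK-N-AS. The best match of a DMSO sample was the same-numbered Erastin sample for replicates 2 and 3 of SK-N-AS and for no other. The GC trends of the libraries enter these correlations, so whether the numbers pair the samples was not settled.

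Depth limits B3GALT4 in both lines, ST8SIA1 in SK-N-AS and ST8SIA5 in KELLY, each with at most 43 counts per library. RNA levels say nothing here of enzyme activity or of GD2 on the cell surface, which were not analysed.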
